A study of Mus musculus with 8 samples.

Results

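The Hedgehog receptors and co-receptors are 5 genes, Ptch1, Smo, Gas1, Cdon and Boc, and were taken by gene symbol from the tables of both cell lines. All 5 had 1 row in each table and passed the filter of at least 1 FPKM (fragments per kilobase of transcript, scaled to the mapped fragments of the library) in at least 1 group. They stand among 10696 genes used for ASZ cells and 11070 for RasV12 cells. The RNA came from ASZ, a line derived from mouse basal cell carcinoma, and 4 groups of 2 libraries each were sequenced. The groups were wild-type ASZ cells with DMSO, the same cells with CBD, ASZ cells expressing RasV12 with DMSO, and those cells with CBD. All 4 groups thus share the ASZ background, and the only labelled differences are RasV12, an activated form of the GTPase Ras, and CBD, whose name, dose and exposure time the labels do not spell out. The labels also do not say which promoter drives RasV12 or whether the RasV12 cells are 1 clone. From general knowledge and not from the labels, ASZ cells come from a tumour of a Ptch1-heterozygous mouse in which the remaining allele was lost. The gene-level FPKM of Ptch1 does not show from which allele or exons its fragments came.

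Hedgehog ligands are received at the cell surface by Ptch1, a transporter-like membrane protein that holds Smo inactive until a ligand binds it. Gas1, Cdon and Boc are co-receptors that bind the ligand together with Ptch1. Gas1 is anchored to the membrane by a lipid tail, while Cdon and Boc are related proteins with immunoglobulin and fibronectin type III domains. Released from Ptch1, Smo, a membrane-spanning receptor of the G protein-coupled type, gathers in the primary cilium and signals to the Gli transcription factors, of which Ptch1 is itself a target gene. In basal cell carcinoma the pathway is typically switched on by loss of Ptch1 or by activating changes in Smo.

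The promoters of Gas1 and Smo are shown because these were the most abundant genes of the group and their responses to CBD lay far apart. Both windows run from 250 bases before to 50 bases after the RefSeq start on the GRCm38.p6 build, not on the mm9 build of the deposited values. They were searched on both strands for the Gli site GACCACCCA, the GC box GGGCGG, the CCAAT box and the TATA box TATAAA. Capitals mark the matches, which did not overlap each other. The Gas1 window lies at chr13:60177486-60177785 on the minus strand and the Smo window at chr6:29735247-29735546 on the plus strand.
Gas1: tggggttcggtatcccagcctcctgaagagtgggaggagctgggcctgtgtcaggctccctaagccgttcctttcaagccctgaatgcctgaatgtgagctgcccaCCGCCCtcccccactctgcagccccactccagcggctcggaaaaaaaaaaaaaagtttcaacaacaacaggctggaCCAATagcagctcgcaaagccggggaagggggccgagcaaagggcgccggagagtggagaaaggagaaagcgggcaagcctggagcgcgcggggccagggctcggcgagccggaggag
Smo: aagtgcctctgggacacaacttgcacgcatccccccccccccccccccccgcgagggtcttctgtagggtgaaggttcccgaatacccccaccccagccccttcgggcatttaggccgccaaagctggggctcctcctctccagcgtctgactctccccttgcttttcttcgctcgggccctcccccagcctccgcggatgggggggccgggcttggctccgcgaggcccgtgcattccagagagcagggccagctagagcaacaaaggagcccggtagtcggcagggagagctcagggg
The Gas1 window held 1 GC box and 1 CCAAT box, and the Smo window held none of the 4 motifs. The Smo window also carried a run of 20 cytosines. Each window had 17 CpG dinucleotides, against a median of 7 over 32851 promoters of the same length. Of those promoters, 35.7% held the GC box, 37.4% the CCAAT box, 13.6% the TATA box and 0.253% the Gli site. Of the other members, the windows listed for Ptch1 and Cdon lie at starts inside the gene and are not shown. Boc is named only.

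The tables give each gene 1 FPKM per group of 2 libraries. The spread between libraries is therefore unknown, no SD is printed, and nothing in the labels says whether the libraries were separate cultures. The SE printed with a log2 ratio of CBD to DMSO was worked back from the p-value that the authors give that gene. From the smallest step between low FPKM values, the depth was estimated as 14.2 M fragments (M for 1e6) per library in both ASZ groups, 16.6 M in RasV12 DMSO and 10.7 M in RasV12 CBD. At that depth about 89.8 to 243 fragments lay behind each Ptch1 value and 3090 to 5990 behind each Smo value, as counts that cover counting error only. The median log2 ratio of all genes used was -0.44 for ASZ and -0.01 for RasV12 cells, and long transcripts fell more than short ones in both lines. In these bulk libraries, fewer cells of a type and less RNA per cell cannot be told apart. All 8 basal keratinocyte markers listed were at 1 FPKM or more in every group, with a summed FPKM of 12945 to 16492 carried by Krt5, Krt14 and Krt17. Within the list, Krt15 was at 146 FPKM in ASZ DMSO and 33.7 in ASZ CBD, Trp63 at 64.6 and 20.7, and Krt17 at 2744 and 5701. In RasV12 DMSO and CBD, Krt15 was at 274 and 130 FPKM and Trp63 at 92.0 and 53.2. Krt17 went the other way there, at 5902 and 4611. Of 7 fibroblast markers none reached 1 FPKM in any group, and their sum ran from 0.271 to 1.503. Lum was listed at 0 throughout, and Pdgfra had no usable row in the RasV12 table. Of 5 leukocyte markers none reached 1 FPKM, and of the endothelial markers Pecam1 was at 9.44 to 23.3 FPKM while Kdr was listed at 0 and Cdh5 was under 0.01. Among melanocyte markers Mitf, a transcription factor also made in other cells, was at 7.56 FPKM in ASZ DMSO and 1.05 in ASZ CBD, and at 9.76 in RasV12 DMSO and 1.48 in RasV12 CBD. Tyr was at 0.276 FPKM in ASZ DMSO and 4.11 in ASZ CBD. The part of these markers in the results was not tested.

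**Figure D1:**
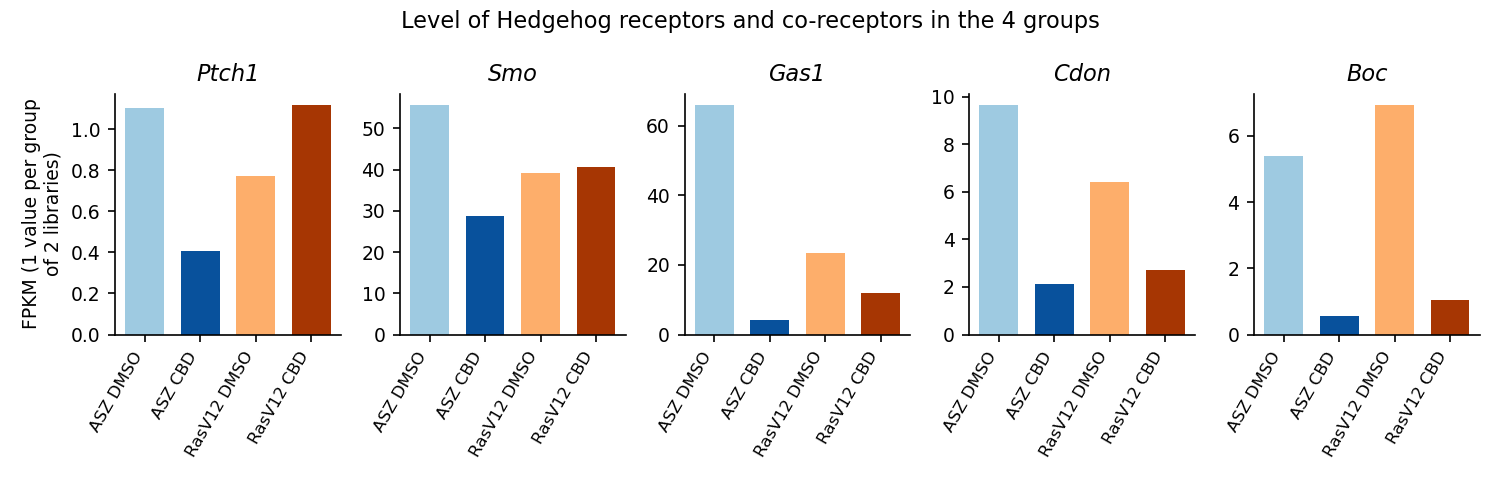
FPKM of each gene (1 panel per gene, each with its own axis from 0) in the 4 groups, with 1 deposited value per group of 2 libraries and therefore no error bar. Gas1 drops from 65.9 to 4.21 FPKM in ASZ cells, while Smo stands at 39.2 and 40.7 FPKM in RasV12 cells.

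CBD was compared with DMSO in wild-type ASZ cells to ask how the agent changed the genes that receive the Hedgehog signal. All 5 were lower with CBD, at an adjusted p under 0.05, where 42.4% of all genes used were called lower and 14% higher. Ptch1 and Boc reached the filter of 1 FPKM in ASZ cells only with DMSO, their higher group. Their place in this comparison is thus not independent of their fall. With no FPKM filter all 5 passed as lower, as did 4690 of all genes. The adjusted p of Ptch1 was then 0.0051, from the authors' p-values with Benjamini-Hochberg adjustment. With the median of genes of similar transcript length subtracted, 2 of the 5 passed as lower, Gas1 and Boc. Of the 10696 genes used, 2651 were then lower and 2462 higher. The co-receptors fell most, Gas1 by 15.7-fold, Boc by 9.46-fold and Cdon by 4.54-fold. The receptors fell less, Ptch1 by 2.70-fold and Smo by 1.94-fold. Whether the falls differ from gene to gene was not tested.

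Ptch1, the ligand-binding receptor, was at 1.10 FPKM in ASZ DMSO and 0.409 in ASZ CBD. Its log2 ratio was -1.43 with an SE of 0.45 (adjusted p = 0.0036, from the authors' p-values with Benjamini-Hochberg adjustment over all genes used). It was the lowest of the 5 genes in both ASZ groups, and 3.17% of genes used had a lower DMSO level. Smo, the signal transducer, was at 55.7 and 28.8 FPKM, a log2 ratio of -0.95 with an SE of 0.22 and a 95% interval of 0.382 to 0.699 for the ratio. Of the genes used, 89.2% had a lower DMSO level than Smo and 35.99% had a lower log2 ratio.

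Gas1 was at 65.9 FPKM in ASZ DMSO, the highest of the 5, and at 4.21 in ASZ CBD. Its log2 ratio of -3.97 had an SE of at most 0.48, since the authors' deposited table lists its p-value as 0, and its adjusted p was at most 4.06e-15. Only 1.07% of all genes used had a lower log2 ratio. Boc was at 5.39 and 0.570 FPKM, a log2 ratio of -3.24 with an SE of at most 0.39, and 3.197% of genes used had a lower one. Cdon was at 9.65 and 2.12 FPKM, a log2 ratio of -2.18 with an SE of 0.27, and 12.2% of genes used had a lower one. About 72.1 fragments lay behind the Boc value and 354 behind the Gas1 value in ASZ CBD, so these low levels rest on fewer fragments than the 683 and 5560 of their DMSO values. In annotation Gas1 is a gene of 1 exon overlapped on the opposite strand by the long noncoding RNA gene Gm48488. The labels do not state that counting used strand, so fragments of both cannot be told apart, and Gm48488 has no row in either table. The other 4 genes also overlap annotated loci. These are a small nuclear RNA gene and a ribosomal RNA gene for Cdon and a microRNA gene for Boc. For Smo it is a processed pseudogene and for Ptch1 an unclassified transcript.

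In RasV12 cells the same comparison gave 3 genes lower and 0 higher, the 3 co-receptors, where 24.4% of genes used were called lower and 18.7% higher. These 3 were lower in both lines, as were 23.2% of 10431 genes used in both tables. Boc fell by 6.57-fold, Cdon by 2.35-fold and Gas1 by 1.97-fold. Smo and Ptch1 did not pass the test. With the length median subtracted 2 passed as lower, Gas1 and Boc, and 1 as higher, Ptch1. Ptch1 reached 1 FPKM in RasV12 cells only with CBD, its higher group, so its place there is not independent of its rise. Of the 11070 genes used, 2256 were then lower and 1884 higher.

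Boc was at 6.93 FPKM in RasV12 DMSO and 1.06 in RasV12 CBD, a log2 ratio of -2.72 with an SE of at most 0.67 (adjusted p = 0.00032, from the authors' p-values with Benjamini-Hochberg adjustment over all genes used). Of the genes used, 2.74% had a lower log2 ratio, and the authors' deposited table gives Boc the lowest p-value of that table, 5e-05. Cdon was at 6.43 and 2.73 FPKM, a log2 ratio of -1.23 with an SE of 0.33 (adjusted p = 0.00084 from the authors' p-value). Gas1 was at 23.5 and 12.0 FPKM, a log2 ratio of -0.98 with an SE of 0.30 (adjusted p = 0.0047 from the authors' p-value). For Gas1 22.5% of genes used had a lower log2 ratio, so the gene lay well inside the range of all genes here.

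Smo was at 39.2 and 40.7 FPKM in RasV12 cells (adjusted p = 0.89 from the authors' p-value), with a 95% interval of 0.722 to 1.49 for the ratio of CBD to DMSO. Ptch1 was at 0.771 and 1.12 FPKM (adjusted p = 0.37 from the authors' p-value), with an interval of 0.757 to 2.77. The intervals leave room for changes in either direction, and the direction of both values turned with scaling, Smo to a log2 change of -0.52 and Ptch1 to -0.025 with equal FPKM sums. Of the authors' own sheets of genes kept at their p-value limit, the ASZ sheet of 4489 genes held Smo, Gas1, Cdon and Boc, and the RasV12 sheet of 2702 genes held Cdon and Boc.

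**Figure D2:**
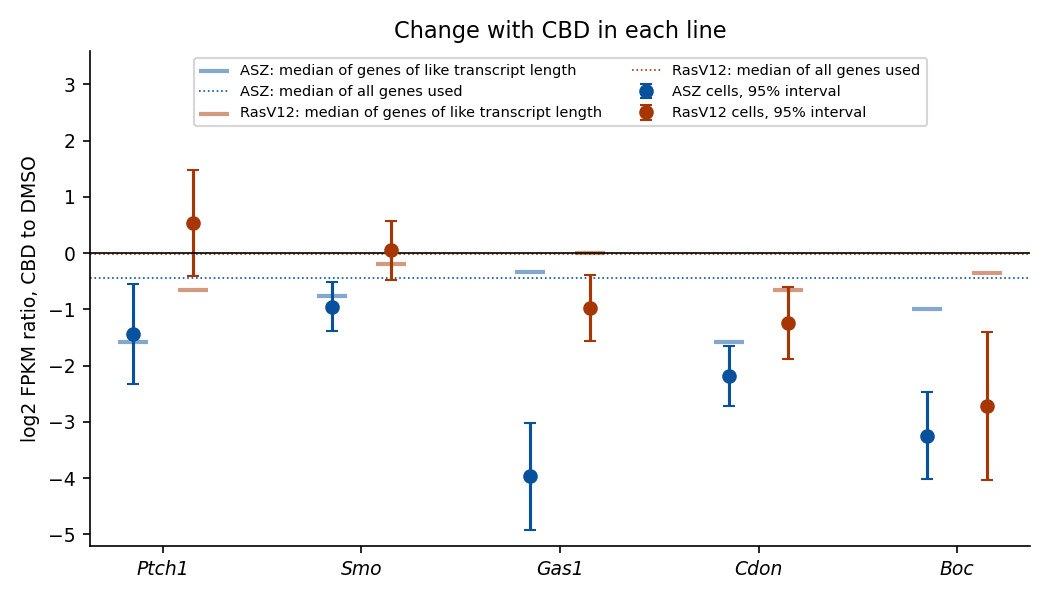
Log2 FPKM ratio of CBD to DMSO (vertical axis) for each gene in ASZ cells (blue) and RasV12 cells (brown), with 95% intervals from the implied standard errors. Short bars mark the median of the gene's length bin and dotted lines the median of all genes used. Gas1 and Boc lie furthest below both marks in ASZ cells, at -3.97 and -3.24.

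The difference of the responses was tested gene by gene as RasV12 minus ASZ, with a two-sided normal test on the implied standard errors and Benjamini-Hochberg adjustment over 10399 genes. Gas1, Ptch1 and Smo passed, each with the higher ratio in RasV12 cells, where 8.65% of genes passed in that direction and 0.577% in the other. The median difference of all genes was 0.41. With 1 value per group no exact test over libraries was possible, and the normal test is no firmer than the authors' p-values. Gas1 differed most, by 2.99 on the log2 scale with an SE of at most 0.57 (adjusted p = 2.6e-05 on the errors from the authors' p-values), and 0.173% of genes had a higher difference. Ptch1 differed by 1.97 with an SE of 0.66 (adjusted p = 0.035) and Smo by 1.01 with an SE of 0.35 (adjusted p = 0.044), on the same errors from the authors' p-values. Ptch1 reached the filter of 1 FPKM only in ASZ DMSO (1.10) and RasV12 CBD (1.12), the higher group of each line. Its place in the test is thus not independent of its difference. With no FPKM filter its adjusted p in the same test was 0.038. Cdon differed by 0.95 with an SE of 0.42 and did not pass (adjusted p = 0.15, likewise resting on the authors' p-values). Boc differed by 0.53 with an SE of at most 0.78 (adjusted p = 0.77, likewise resting on the authors' p-values). Its 95% interval of -0.998 to 2.05 is thus at its widest. As given, it leaves both a like and an unlike response possible. The Ptch1 and Smo differences did not pass when the median ratio of each line was set to 0 (adjusted p = 0.23 and 0.51 on the authors' errors) or with equal FPKM sums (0.053 and 0.079). The Gas1 difference passed under all 4 other scalings tried, at 2.56 or more.

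**Figure D3:**
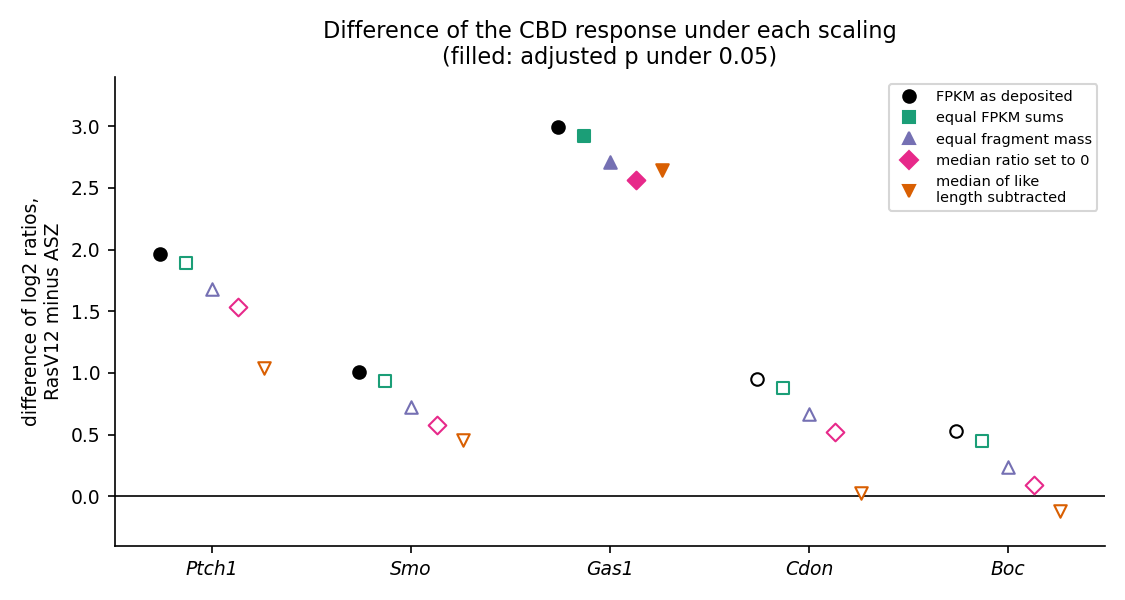
Difference of the log2 ratios of CBD to DMSO, RasV12 minus ASZ (vertical axis), for each gene under 5 scalings of the FPKM values, filled where the adjusted p was under 0.05. Gas1 is filled under all 5, Ptch1 and Smo only with FPKM as deposited, and Cdon and Boc under none.

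Transcript length moved with the response. In 10 equal bins of length the median log2 ratio in ASZ cells ran from 0.65 in the shortest bin to -1.58 in the longest, and in RasV12 cells from 0.58 to -0.66. The Ptch1 and Cdon transcripts, at 7725 and 7503 nt, lie in the longest bin, where 78.4% of genes were called lower in ASZ cells. Ptch1 in ASZ cells lay close to the median of that bin, with 53.8% of its genes at a lower log2 ratio, and Smo (3779 nt) lay likewise with 44.5%. Cdon had 31.1% of its bin below it. Boc, at 4451 nt, had 5.19% below it in ASZ cells and 4.28% in RasV12 cells. Gas1 has the shortest transcript of the 5, at 2961 nt, in a bin with a median of -0.34, and 0.384% of that bin lay below it in ASZ cells and 21.2% in RasV12 cells. With the median of the bin subtracted, Gas1 and Boc passed as lower in both lines and Cdon in neither (adjusted p = 0.053 in ASZ and 0.15 in RasV12 on the authors' errors). Smo then did not pass in either line. Ptch1 did not pass in ASZ cells (log2 ratio 0.15) but passed as higher in RasV12 cells (1.19, adjusted p = 0.037 on the authors' errors). In RasV12 cells Ptch1 reached the FPKM filter only with CBD, its higher group.

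**Figure D4:**
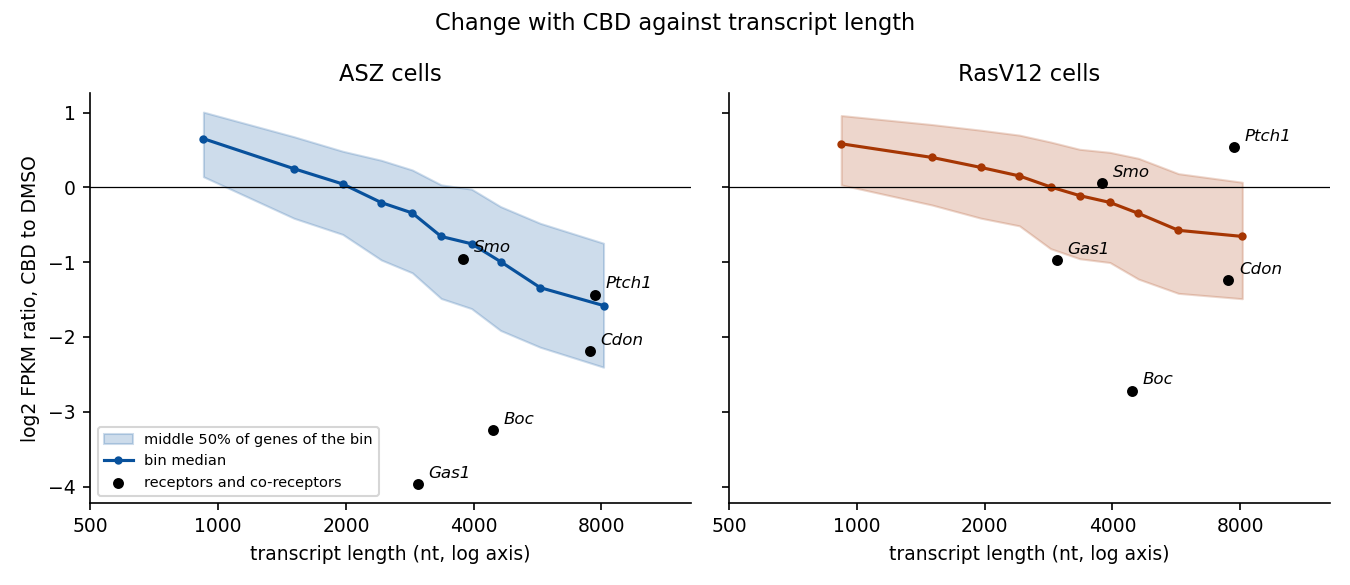
Log2 FPKM ratio of CBD to DMSO (vertical axis) against transcript length in nt (log axis) in ASZ cells (left) and RasV12 cells (right), with the median and the middle 50% of genes in each of 10 length bins and the 5 genes as points. Smo and Ptch1 lie near the line in ASZ cells, and Gas1 and Boc lie below the band.

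The lines were also set side by side under the same agent. The groups stand in separate tables, so no test was made, and levels are given as FPKM and as log2(FPKM + 1) minus the group's median over 10431 genes used in both tables. Under DMSO, Gas1 was at 65.9 FPKM in ASZ and 23.5 in RasV12 cells, a difference of -1.62 on the centred scale (RasV12 minus ASZ), and 0.470% of genes had a lower difference. Cdon differed by -0.69, Smo by -0.66 and Ptch1 by -0.42 on that scale. Boc was the only one of the 5 higher in RasV12 cells, by 0.15. Under CBD the differences were 0.68 for Gas1, -0.05 for Ptch1, -0.15 for Smo, -0.24 for Boc and -0.38 for Cdon. With FPKM as deposited all 5 were higher in RasV12 than in ASZ cells under CBD. Gas1 stood at 2.84 times and Ptch1 at 2.73 times the ASZ level. The signs of the other 4 thus depended on the scaling there, while that of Gas1 did not. With 0.1 FPKM added in place of 1, the centred differences were 0.79 for Gas1, 0.56 for Ptch1 and 0.09 for Boc. Smo was then at -0.20 and Cdon at -0.35. The signs of Ptch1 and Boc under CBD thus also rest on the added 1 FPKM. The difference between the lines in Gas1 thus stood at opposite signs under DMSO and under CBD.

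The order of the levels, read within a group and per length as FPKM is, put Gas1 first in ASZ DMSO and Smo first in the other 3 groups. Ptch1 was last in every group but RasV12 CBD, where it stood at 1.12 FPKM beside Boc at 1.06. Cdon stood above Boc except in RasV12 DMSO, at 6.43 and 6.93 FPKM. With no spread per group, whether neighbours in this order differ was not tested. A ratio of genes within a group does not depend on a scaling by 1 factor per group, but it does on the length subtraction, under which the log2 ratio of CBD to DMSO in ASZ cells was 0.15 for Ptch1 and -0.20 for Smo. The FPKM of Smo was 0.845 times that of Gas1 in ASZ DMSO and 6.84 times in ASZ CBD, and 1.67 and 3.41 times in RasV12 DMSO and CBD. The ratio of Boc to Cdon was 0.558 in ASZ DMSO, 0.268 in ASZ CBD, 1.08 in RasV12 DMSO and 0.386 in RasV12 CBD, lower with CBD in both lines. The FPKM of Smo was 50.5 times that of Ptch1 in ASZ DMSO and 50.9 times in RasV12 DMSO, and 70.4 and 36.5 times in ASZ CBD and RasV12 CBD.

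Summed over the 3 co-receptors, the level was 80.9 FPKM in ASZ DMSO and 6.90 in ASZ CBD. It was 36.9 FPKM in RasV12 DMSO and 15.7 in RasV12 CBD. Gas1 made up 81.4% of that sum in ASZ DMSO and 60.97% in ASZ CBD, 63.8% in RasV12 DMSO and 75.9% in RasV12 CBD. Boc made up 18.8% in RasV12 DMSO and 6.70% in RasV12 CBD. Relative to Smo in the same group, the sum was 1.45 in ASZ DMSO, 0.240 in ASZ CBD, 0.940 in RasV12 DMSO and 0.386 in RasV12 CBD. Co-receptor RNA was lower relative to Smo in both CBD groups than in both DMSO groups.

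**Figure D5:**
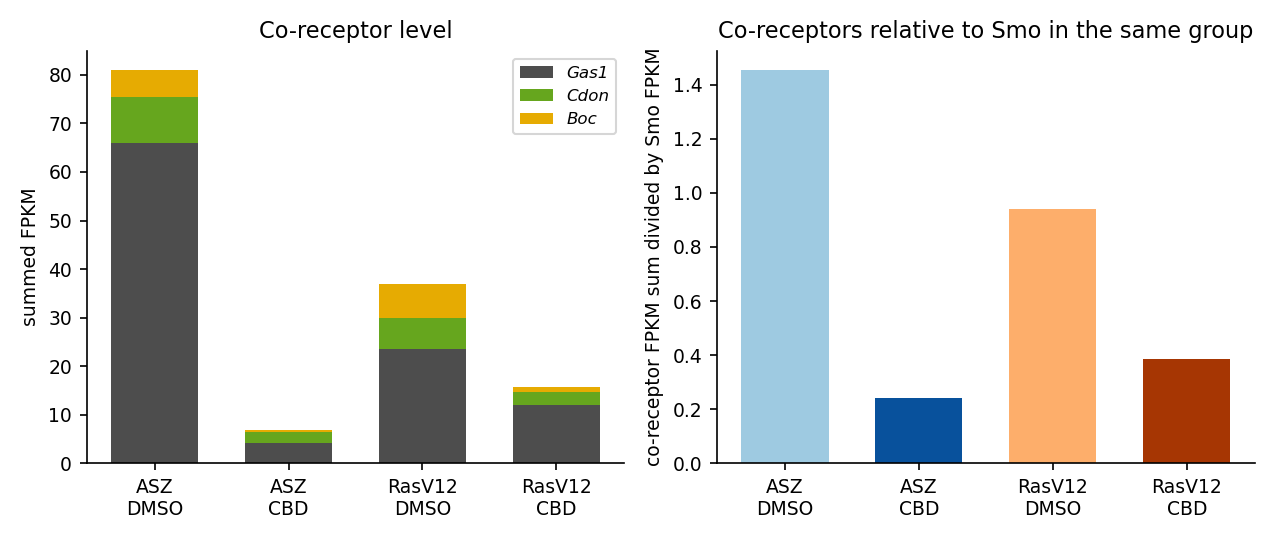
Left, FPKM of Gas1, Cdon and Boc stacked to their sum in each of the 4 groups. Right, that sum divided by the FPKM of Smo in the same group, which runs from 1.45 in ASZ DMSO to 0.240 in ASZ CBD. There is 1 deposited value per group and therefore no error bar.

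The other genes of the pathway were counted from a list of 41, of which 28 were tested in ASZ cells and 27 in RasV12 cells. In ASZ cells 16 were lower and 2 higher, beside 42.4% and 14% of all genes used, with a median change of -0.50 on the log2(FPKM + 1) scale beside -0.37 over all genes used. In RasV12 cells 4 were lower and 7 higher, beside 24.4% and 18.7% of all genes used, with a median of 0.17 beside -0.01. These counts turned with scaling, from 22 lower and 0 higher in ASZ cells with equal FPKM sums to 6 and 8 with the length median subtracted, and from 9 and 3 to 3 and 10 in RasV12 cells. Over all genes used, the counts likewise went from 6334 lower and 436 higher to 2651 and 2462 in ASZ cells. In RasV12 cells they went from 4702 and 253 to 2256 and 1884. With no FPKM filter 35 genes of the list were tested in ASZ cells, 14 lower and 2 higher. Over all genes 4690 were then lower and 1427 higher. RNA of the ligands that the 5 genes receive was at or near 0, with Shh and Dhh listed at 0 in all 4 groups and Ihh at 0.0586 FPKM or less. Hhat, the acyltransferase that lipidates the ligands, was at 4.40 and 4.22 FPKM in ASZ cells and 5.76 and 7.09 in RasV12 cells, in DMSO and CBD, and did not pass in either line. Hhip, a decoy receptor, was under 0.01 FPKM in every group.

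Among other surface proteins that bind the ligands, the glypicans are heparan sulfate proteoglycans. Gpc1 rose in RasV12 cells from 72.1 to 229 FPKM and Gpc4 from 31.2 to 90.5, both under every scaling tried. In ASZ DMSO and CBD, Gpc1 was at 103 and 93.2 FPKM and Gpc4 at 60.01 and 74.8 (adjusted p = 0.57 and 0.21 from the authors' p-values). With scaling, Gpc1 in ASZ cells passed as lower with equal FPKM sums and as higher with the length median subtracted, and Gpc4 as higher with the latter or with the median ratio set to 0. Gpc6 fell in ASZ cells from 5.69 to 2.94 FPKM, without passing when the median ratio was set to 0 or the length median subtracted. The Gpc1 response differed between the lines by 1.82 (SE at most 0.46, adjusted p = 0.0034 on the authors' errors), but did not pass with the median ratio set to 0 (0.074) or the length median subtracted (0.17).

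Of 9 tested regulators of Smo at the membrane, 4 were lower and 1 higher in ASZ cells, and 0 lower and 3 higher in RasV12 cells. Of all genes used, 42.4% were lower and 14% higher in ASZ cells, and 24.4% and 18.7% in RasV12 cells. The ASZ count of falls lay near the share of all genes. Evc2, which binds Smo at the base of the cilium, fell in ASZ cells from 6.92 to 3.61 FPKM and was at 2.22 and 3.95 in RasV12 cells (adjusted p = 0.061 from the authors' p-value). The former did not pass with the median ratio set to 0 or the length median subtracted, and the latter passed as higher with the length median subtracted. Of the genes between Smo and the nucleus, 11 of 14 were lower and 1 higher in ASZ cells, beside 42.4% and 14% of all genes used. In RasV12 cells 4 of 13 were lower and 1 higher, beside 24.4% and 18.7%. The ASZ count of falls includes Gli1, Gli2, Kif7 and Stk36. These reached 1 FPKM in ASZ cells only with DMSO, their higher group, so their place in it is not independent of their fall. The count also depended on scaling. Prkacb, Ulk3, Stk36 and Btrc did not pass with the median ratio set to 0 or the length median subtracted. Gsk3b and Gpr161 did not pass with the latter. With equal FPKM sums all 11 still passed as lower, and further genes of this set with them. The gene called higher in both lines was Prkaca, which did not pass with equal FPKM sums in either line. Gli2, a transcription factor that activates target genes, fell from 2.01 to 0.208 FPKM in ASZ cells and from 5.19 to 1.47 in RasV12 cells. Sufu, which restrains the Gli factors, fell from 11.1 to 1.503 and from 10.6 to 2.42 FPKM. Both passed as lower in both lines under every scaling tried. Gli1, an activating Gli factor and target gene of the pathway, fell in ASZ cells from 2.73 to 0.682 FPKM, also under every scaling, and was not tested in RasV12 cells, at 0.953 and 0.630 FPKM. Gli3, a transcription factor that mainly represses, fell from 11.3 to 1.90 FPKM in ASZ cells and from 10.2 to 5.02 in RasV12 cells, the latter not passing with the length median subtracted. Gpr161, a ciliary receptor that restrains the pathway, fell from 8.90 to 2.43 and from 12.2 to 3.14 FPKM, the former not passing with the length median subtracted. Of 27 pathway genes with a test of the difference, 6 were higher in RasV12 cells and 0 lower, beside 8.65% and 0.577% of all genes. With the length median subtracted 0 of the 27 passed, and of the 5 receptors and co-receptors 1 passed, Gas1. Of 10399 genes, 87 were then higher and 94 lower.

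The genes whose profile over the 4 groups was most like that of each member were ranked by Euclidean distance on the centred log2(FPKM + 1) scale. The profile has 4 values, so many genes can lie close, and the pseudocount of 1 FPKM flattens that of a low gene. The change of Ptch1 in ASZ cells was -0.58 with it and -1.43 without, so its neighbours rest on the pseudocount. That of Boc was -2.02 with it and -3.24 without. The neighbours of Boc and its distance from Cdon thus rest on the pseudocount too. For Gas1 none of the 10431 genes lay within 0.5, and the nearest were Ajuba at 0.668, Sipa1l2 at 0.717 and Ccn4 at 0.729. Ajuba was at 55.7 FPKM in ASZ DMSO and 5.35 in ASZ CBD, and at 38.5 in RasV12 DMSO and 15.9 in RasV12 CBD. For the other members 424 to 1715 genes lay within 0.5. The nearest were Snrnp40, Myo5a and Parp11 for Ptch1, Lats2, Cmtm4 and Rflnb for Smo, Tmtc3, Stk10 and Mbnl1 for Cdon, and Toe1, Ppp1r8 and Rbm20 for Boc. Among the members themselves Ptch1 and Smo lay nearest, at 0.335, followed by Cdon and Boc at 0.849, and Ptch1 and Gas1 furthest, at 2.36. Of the 10431 genes, however, 563 lay nearer to Ptch1 than Smo did and 245 nearer to Smo than Ptch1 did. Likewise 2283 lay nearer to Cdon than Boc did and 1274 nearer to Boc than Cdon did.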

How the data were processed

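RNA of ASZ and RasV12-expressing ASZ cells was made into Illumina TruSeq libraries from total RNA, per the labels' protocols. The submitters' processing notes name TopHat, Cufflinks and the mm9 build, whose versions are not given in the sources used here. The deposited tables hold, per the file headers, 1 FPKM per gene and group over 2 libraries and the authors' unadjusted p-value for CBD against DMSO. The authors' filtered sheets hold deposited log2 fold changes, read for membership only.

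From these files, rows with no name (199 in the ASZ table) or a date for a name (26 in each) were left out, and older symbols were updated through RefSeq synonyms (1660 and 1292 rows). Of a symbol with several rows the highest was kept when the rest stayed below 10% of it. A gene was used when its p-value was under 1, which marks no test, and its FPKM reached 1 in either group. Benjamini-Hochberg adjustment of the authors' p-values ran over all genes used in a table, with a limit of 0.05. The SE of a log2 ratio is its size over the normal quantile of p. Where p stood at 0 or at the table's lowest value (585 genes used in ASZ, 1705 in RasV12) it is an upper bound. The p-values of the RasV12 table move in steps of 5e-05 and those of the ASZ table reach 0, so the test between lines sets unlike p-values against each other. A pseudocount of 1 FPKM, used for levels and list medians, understates the change of low genes. Transcript lengths are of the longest coding GENCODE M21 transcript (97.4% and 97.1% of genes used). The functions were tested on simulated data. Python 3.11.15, pandas 2.3.3, numpy 2.4.6, scipy 1.17.1 and matplotlib 3.10.9 were used.

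The members, lists and tests were chosen with earlier results of these data known. Named genes were the 5 members, the listed ligands, Hhip, genes of the pathway list at 1 FPKM or more that were called in any comparison, and the 3 nearest profiles of each member. Hhat and the markers given values were named from the lists after their values were seen. Some genes that this rule names are not reported here. Alternatives tried were 4 other scalings, 2 other filters, Bonferroni adjustment, leaving out repeated symbols, and other pseudocounts.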

Additional observations from a re-analysis of the deposited data

Results flagged for a closer look

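The response to CBD differed between RasV12 and ASZ cells, by the test of the difference itself, for 3 of the 5 genes. Gas1 differed by 2.99 on the log2 scale, Ptch1 by 1.97 and Smo by 1.01, each with the higher ratio of CBD to DMSO in RasV12 cells. The SE of the Gas1 difference is an upper bound. Ptch1 reached the filter of 1 FPKM only in the higher group of each line. The median difference over 10399 genes was 0.41 in the same direction, and 8.65% of them passed with the higher ratio in RasV12 cells. Under each of the 4 other scalings tried Gas1 passed and Ptch1 and Smo did not.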

How the results depend on the processing

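Under equal FPKM sums, equal fragment mass (FPKM times length) and a median ratio of 0, all 5 members passed as lower in ASZ cells and the 3 co-receptors in RasV12 cells. Among the 10696 genes used in ASZ cells, 6334, 4909 and 3280 were then lower, in that order of scaling. Among the 11070 genes used in RasV12 cells, 4702, 4003 and 2683 were lower. With the median of the length bin subtracted, the log2(FPKM + 1) change in ASZ cells was 0.078 for Ptch1, -0.20 for Smo and -0.54 for Cdon, none passing, and in RasV12 cells -0.49 for Cdon, not passing, and 0.64 for Ptch1, passing as higher. The change in RasV12 cells turned for Ptch1 to -0.025 and for Smo to -0.52 with equal FPKM sums, and for Smo to -0.34 with equal fragment mass. The difference between lines no longer passed for Ptch1 at 1.89 with equal FPKM sums, 1.68 with equal fragment mass, 1.54 with a median of 0 and 1.04 with the length median subtracted, nor for Smo at 0.93, 0.72, 0.58 and 0.45. For Boc it turned to -0.12 with the length median subtracted. The causes were not tested. Gas1 passed the difference test under every alternative run, at an adjusted p of 2.4e-05 to 0.0016.

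Bonferroni adjustment left the changes as they were and ended the calls of Ptch1 (-0.58) and Smo (-0.93) in ASZ cells, of Gas1 (-0.92), Cdon (-0.99) and Boc (-1.95) in RasV12 cells, and of the differences for Ptch1 (1.97) and Smo (1.01). In the RasV12 table no gene can pass it, since the lowest p-value of 5e-05 times 11070 genes exceeds 0.05. With at least 5 FPKM Ptch1 was not tested. The difference of levels between lines under CBD moved to 0.49 for Smo, 1.31 for Gas1 and 0.26 for Cdon with FPKM as deposited. It likewise changed sign for Ptch1, to 0.59, and for Boc, to 0.39. With a pseudocount of 0.1 FPKM the centred difference also changed sign for Ptch1, to 0.56, and for Boc, to 0.09.

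Counts over all genes moved by more than 1.5 times as follows. In ASZ cells 2651 were lower and 2462 higher with the length median subtracted, 436 higher with equal FPKM sums, 2978 higher with a median of 0, and 2433 lower and 323 higher with Bonferroni, against 4532 and 1501. In RasV12 cells 4702 were lower and 253 higher with equal FPKM sums, 733 higher with equal fragment mass, and 0 and 0 with Bonferroni, against 2705 and 2072. For the difference, 313 were higher with equal fragment mass, 107 lower and 178 higher with a median of 0, 94 and 87 with the length median subtracted, and 14 and 113 with Bonferroni, against 60 and 900. No paired analysis was possible because the tables give 1 value per group and none per library, and for the same reason no library could be left out.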
